A study of Mus musculus with 15 samples.

Results

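The 34 genes described here belong to the cellular response to low oxygen and to glycolysis, and they were followed through 15 RNA-seq libraries of embryonic mouse intestine at E16.5 (the embryonic day). They were chosen by symbol: the rows whose Entrez gene ID carries one of 34 listed symbols were taken from the 36528 gene IDs in the files. All 34 passed the filter on low counts and were among the 18370 genes tested. The first genotype carried Casp8 with the C362A substitution, which puts alanine in place of the catalytic cysteine of caspase-8, in a knockin with Mlkl knocked out (C362A, 5 libraries). The second had both Casp8 and Mlkl knocked out (knockout, 5 libraries). The third kept wildtype Casp8 on the same Mlkl knockout background (wildtype, 5 libraries), so every group lacked Mlkl, the effector of necroptosis. The labels mark the C362A tissue as inflamed and the other 2 groups as normal. They do not say whether the libraries came from separate embryos or litters, so the p-values measure the spread between these libraries, which may be in part technical.

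Cells sense oxygen through prolyl hydroxylases, which use oxygen to mark the alpha subunit of hypoxia-inducible factor (HIF) for degradation by the Vhl ubiquitin ligase. When oxygen is low, HIF alpha accumulates as a protein, pairs with Arnt and binds a short core motif at genes for glucose uptake, glycolytic enzymes, lactate export, blood vessel growth and mitochondrial turnover. In the gut, low oxygen at the epithelial surface makes HIF a known regulator of the barrier. HIF1A activity is set largely at the protein level, which RNA-seq does not measure.

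Libraries held 31896399 to 38532127 counts, and the 34 genes together took up 0.7104% to 0.977% of the counts of a library. Casp8 was at 20.6 to 23.2 RPKM (reads per kilobase and per 1e6 reads, as deposited) in C362A libraries, at 3.92 to 5.30 RPKM in knockout libraries and at 19.97 to 24.9 RPKM in wildtype libraries, which matches the knockout label, and Mlkl was at 0.323 RPKM or less throughout. A gene's count cannot show the C362A substitution, so that label was not checked. All 8 genes that define intestinal epithelium here, among them Cdx2 and Vil1, were well above 0 in every library, with Cdx1 at 142 to 214 CPM. CPM are counts per 1e6 counts, scaled between libraries by TMM factors. The labels carry no replicate numbers, so the libraries were numbered here within each genotype, in the order of the samples in the series. C362A replicate 5 stood apart in these genes before any comparison: it was above the other 4 C362A libraries in 28 of 34 genes and below them in 1, against 32.9% above and 30.7% below over all genes tested. Where leaving it out turned the direction of a log2 fold change of 1 of the 34 genes named below or moved it by over 1.5 times, the value without it is given as well. The libraries are of whole tissue, so fewer cells of a type and less RNA per cell cannot be told apart.

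The 34 genes covered a wide range of levels. By mean RPKM over the 15 libraries, a scale per length, and leaving aside Gapdh, Pgk1, Bnip3, Eno1 and Pgam1, Ndrg1, a stress-induced gene of differentiating epithelium, was highest at 797, followed by the glycolytic enzymes Tpi1 at 476, Ldha at 424 and Aldoa at 383. At the low end was the vasodilator peptide gene Adm at 1.69 RPKM. The 5 genes left aside have near-identical copies, and Gapdh was listed at 1.48 and Pgam1 at 1.29 RPKM. Of the 50-base windows of Gapdh transcripts, 58.4% occurred also in transcripts of 222 other genes, 209 of them pseudogenes, and the counts are of uniquely aligned reads only. The same share was 68.0% for Pgk1, 59.1% for Bnip3, 49.5% for Eno1 and 41.5% for Pgam1. Levels of these 5 genes are therefore uncertain, and they were given no place in the order.

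Many steps of the pathway can be run by more than one isozyme, and 1 of them usually led in this tissue. Among HIF alpha subunits, Hif3a, whose product is a weaker activator or an inhibitor depending on the isoform, was at 75.4 ± 12.2 RPKM (SD, n = 15 libraries of all genotypes), above Hif1a at 22.2 ± 3.74 and Epas1, which encodes HIF2A, at 7.38 ± 0.984. These 3 ranges did not overlap. Egln3, the prolyl hydroxylase gene most strongly induced by HIF, was at 81.5 ± 9.31 RPKM, above Egln2 at 38.6 ± 3.48 and Egln1 at 36.7 ± 2.95, and the last 2 overlapped. Among glucose transporters, Slc2a1 (GLUT1) led at 67.0 ± 11.3 RPKM and the enterocyte transporter Slc2a2 followed at 12.3 ± 6.53.

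For the first committed steps, Hkdc1, a hexokinase-domain gene expressed in gut epithelium, was at 37.1 ± 8.93 RPKM, above Hk1 at 10.8 ± 1.28 and Hk2, the inducible hexokinase gene, at 6.52 ± 1.26, in each of the 15 libraries. Pfkl, the liver-type phosphofructokinase gene, was at 131.9 ± 16.7 RPKM, which is 6.19 times the mean of the muscle-type Pfkm at 21.3 ± 0.742, and the platelet-type Pfkp was at 16.47 ± 2.13. Pklr, the liver-type pyruvate kinase gene, was above Pkm in 14 of 15 libraries, at 180.6 ± 52.5 and 104.6 ± 16.52 RPKM. Ldha, whose enzyme favours lactate formation, was 40.7 times Ldhb, at 424 ± 55.6 and 10.4 ± 1.69 RPKM. Pdk3, Pdk2 and Pdk1, kinases that hold back pyruvate dehydrogenase, were at 26.0 ± 1.55, 22.3 ± 4.30 and 21.2 ± 2.77 RPKM and overlapped.

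**Figure D1:**
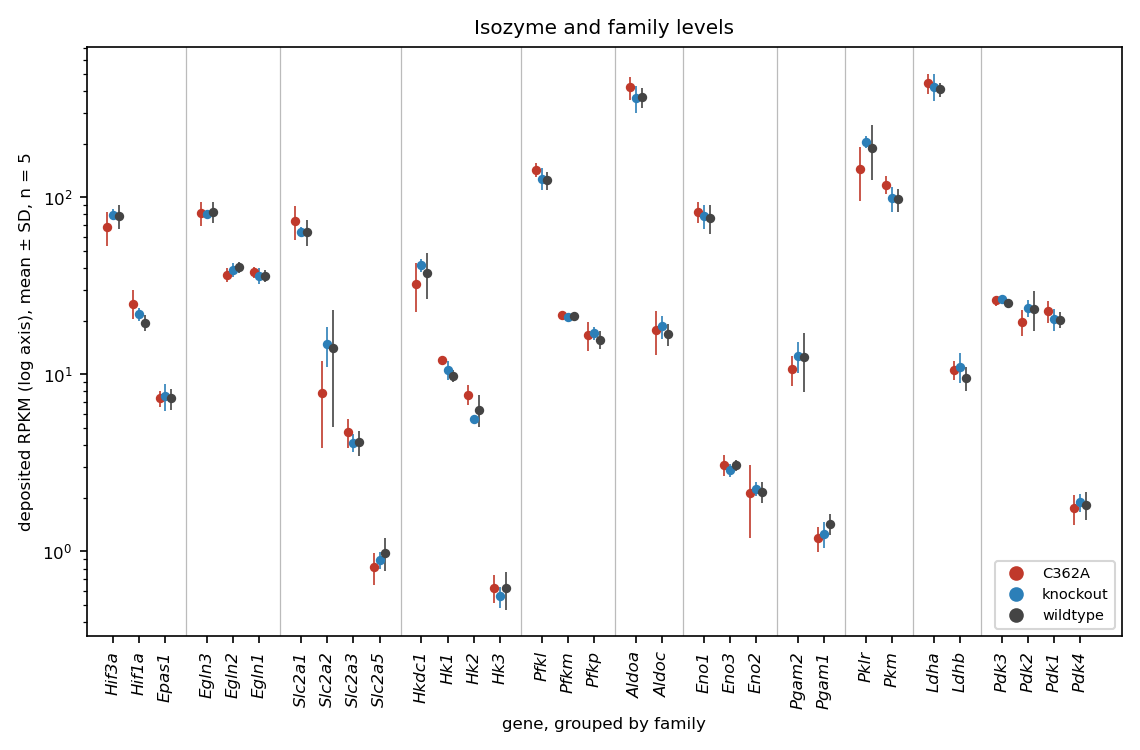
Deposited RPKM on a log axis for the members and their relatives in each isozyme family, as the mean of 5 libraries per genotype with SD bars, in C362A (red), knockout (blue) and wildtype (dark grey). Hif3a lies above Hif1a and Epas1, Hkdc1 above Hk1 and Hk2, and Ldha above Ldhb in every genotype.

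The core that HIF binds reads ACGTG or GCGTG, and both strands of the 250 bases before each annotated start in RefSeq (GRCm38.p6) were searched for these letters. A start was listed for 32 of the 34 genes (Epas1 and Ndrg1 had none), and 30 of those 32 genes, or 93.8%, had a match in at least 1 of their windows. The share was 57.1% of the tested genes with a window and 41.5% of all genes with a window. By window, 37 of 47 held a match, or 78.7%, against 51.5% of the windows of tested genes and 38.6% of all windows. Gpi1 and Tpi1 had none in these windows. A palindromic CACGTG holds the core on both strands and counts as 2 matches, and the core overlaps other E-box motifs. A match is a description of these letters, not a binding site.
The windows of 4 genes on which the results turn are shown 5′ to 3′ on the strand of the gene, with the core on either strand in capitals. They are the windows before 1 annotated start each: Ankrd37 at chr8:45999851-46000100 on the minus strand with 4 matches, P4ha1 at chr10:59323046-59323295 on the plus strand with 3, Ldha at chr7:46845554-46845803 on the plus strand with 5, and Pgk1 at chrX:106186850-106187099 on the plus strand with 2. The first had the largest difference between knockout and wildtype libraries, the second was among those with the smallest p in C362A, and the last pair varied most closely together between libraries. An annotated start can lie inside the span of its gene. The windows of Ankrd37 and Ldha are wholly within the gene span in RefSeq, that of P4ha1 is partly within it, and that of Pgk1 ends before it. The first 3 windows thus hold annotated gene sequence.
Ankrd37: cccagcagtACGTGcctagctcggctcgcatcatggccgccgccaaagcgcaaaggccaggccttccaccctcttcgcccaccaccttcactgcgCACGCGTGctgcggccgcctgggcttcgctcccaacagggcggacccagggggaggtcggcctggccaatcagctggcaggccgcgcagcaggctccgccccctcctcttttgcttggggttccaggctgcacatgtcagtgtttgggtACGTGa
P4ha1: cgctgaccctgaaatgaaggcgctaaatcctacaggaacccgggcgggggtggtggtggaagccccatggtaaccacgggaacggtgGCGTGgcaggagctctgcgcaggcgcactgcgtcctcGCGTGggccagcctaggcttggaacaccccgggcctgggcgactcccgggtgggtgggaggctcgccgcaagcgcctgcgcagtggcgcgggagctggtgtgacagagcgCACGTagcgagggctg
Ldha: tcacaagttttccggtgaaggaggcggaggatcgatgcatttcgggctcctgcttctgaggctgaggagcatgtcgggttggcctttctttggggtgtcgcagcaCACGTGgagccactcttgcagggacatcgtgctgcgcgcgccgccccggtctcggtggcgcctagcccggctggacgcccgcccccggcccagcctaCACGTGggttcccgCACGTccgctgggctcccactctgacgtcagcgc
Pgk1: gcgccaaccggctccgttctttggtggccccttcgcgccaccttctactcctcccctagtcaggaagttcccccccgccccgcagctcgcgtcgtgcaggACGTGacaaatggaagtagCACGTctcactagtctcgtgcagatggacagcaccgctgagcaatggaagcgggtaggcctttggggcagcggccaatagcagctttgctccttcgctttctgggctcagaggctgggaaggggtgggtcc

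Between genotypes, none of the 34 genes passed the test in any comparison. The test was edgeR's quasi-likelihood test over 18370 genes with Benjamini-Hochberg adjustment, and a gene was called at an adjusted p under 0.05. In C362A against wildtype 0 of 34 were called, on a background of 0.0817% of tested genes called higher and 0.0% called lower. In knockout against wildtype 0 of 34 were called, where 0.0272% of tested genes were called higher and 0.0109% lower. In C362A against knockout 0 of 34 were called, where 0.0109% were called higher and 0.0% lower. DESeq2 and limma-voom also called 0 of the 34 in each comparison. At an unadjusted p under 0.05, 8 of the 34 were higher and 1 was lower in C362A against wildtype (8.08% and 7.8% of tested genes), 0 and 1 in knockout against wildtype (1.2% and 1.23%), and 6 and 0 in C362A against knockout (6.49% and 7.41%). The 3 comparisons share groups and are not independent of each other.

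The median log2 fold change of the 34 genes was 0.11 in C362A against wildtype, where that of all genes tested was 0.007. It was 0.018 in knockout against wildtype, against −0.004 over all genes, and 0.118 in C362A against knockout, against 0.014. Leaving out C362A replicate 5 put the median at 0.037 in C362A against wildtype and 0.050 in C362A against knockout, against 0.006 and 0.010 over all genes. These medians describe the list and were not tested. Within a genotype, the median deviation of the 34 genes varied between libraries with an SD of 0.14 on the log2 scale.

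**Figure D2:**
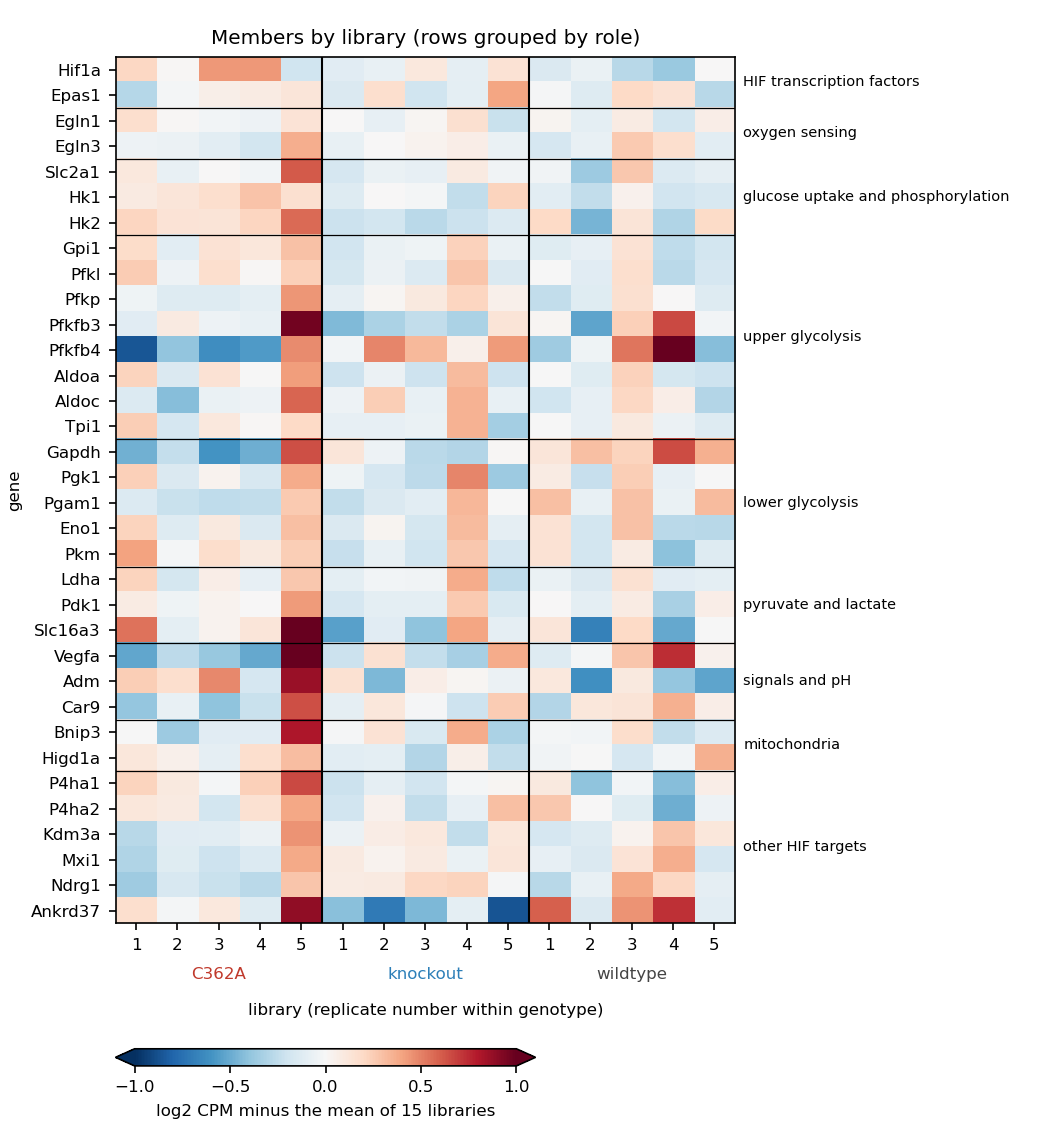
Colour gives log2 CPM minus the mean of all 15 libraries for each of the 34 genes (rows, grouped by role) in each library (columns, C362A, knockout and wildtype from left to right, numbered within genotype), limited to −1 and 1. C362A replicate 5 has the highest level of the 15 libraries in 19 genes, and knockout replicate 4 in 6.

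In C362A against wildtype the smallest unadjusted p-values belonged to Hk1, Hif1a, P4ha1, Adm and Hk2, all at a higher mean in C362A, with adjusted p-values between 0.285 and 0.292. Hif1a (Entrez 15251, chr12:73901324-73947554, GRCm38.p6), the oxygen-regulated HIF subunit gene, was at 123.6, 108, 144, 145 and 93.1 CPM in the C362A libraries 1 to 5 and at 97.0, 102.0, 88.3, 82.7 and 107 CPM in the wildtype libraries. Replicates 1 to 4 of C362A lay above every wildtype library, and replicate 5 lay inside the wildtype range. The log2 fold change was 0.36 (SE 0.11, adjusted p = 0.285 by edgeR). Of its exon bases, 8.11% overlap other annotated genes, and the TruSeq kit used does not mark the strand. Epas1, the HIF2A gene, was at 33, 39.6, 41.9, 42.6 and 43.8 CPM in C362A libraries and at 40.0, 36.7, 46.1, 44.6 and 33.2 CPM in wildtype libraries. The groups overlapped almost fully, and the log2 fold change was 0.003 (SE 0.12), or −0.03 without C362A replicate 5. The oxygen sensor genes were as close, with Egln1 at 139.6 ± 9.70 against 133 ± 10.4 CPM and Egln3 at 224 ± 35.6 against 226 ± 30.2 CPM (SD, n = 5 each).

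Glucose uptake and trapping genes had the highest group median of the roles with 3 or more genes, at a log2 fold change of 0.29, with none called. Hk1 (Entrez 15275, chr10:62268855-62379920), the broadly expressed hexokinase gene, was at 62.4, 63.8, 65.8, 71.3 and 65.6 CPM in C362A libraries and at 54.5, 49.5, 60.3, 51.5 and 52.5 CPM in wildtype libraries. It was the only 1 of the 34 genes, higher or lower, in which these 5 and 5 libraries did not overlap, a pattern found in 0.86% of tested genes as higher and 0.299% as lower. The log2 fold change was 0.29 (SE 0.08, adjusted p = 0.285 by edgeR). Hk2 (Entrez 15277, chr6:82725025-82774454), the hexokinase gene that HIF induces, was at 43.5, 41.2, 41.0, 43.3 and 55.4 CPM in C362A libraries and at 43.1, 27.1, 41.0, 30.3 and 42.7 CPM in wildtype libraries. Wildtype fell into 3 libraries near the C362A levels and 2 below them, and the log2 fold change was 0.29 (SE 0.12, adjusted p = 0.292 by edgeR). Slc2a1 was at 196.0, 173, 183, 179 and 279 CPM in C362A libraries and at 178, 142, 220.3, 166 and 171 CPM in wildtype libraries. Only replicate 5 of C362A exceeded the highest wildtype library, and the log2 fold change was 0.20 (SE 0.13), or 0.06 without it.

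**Figure D3:**
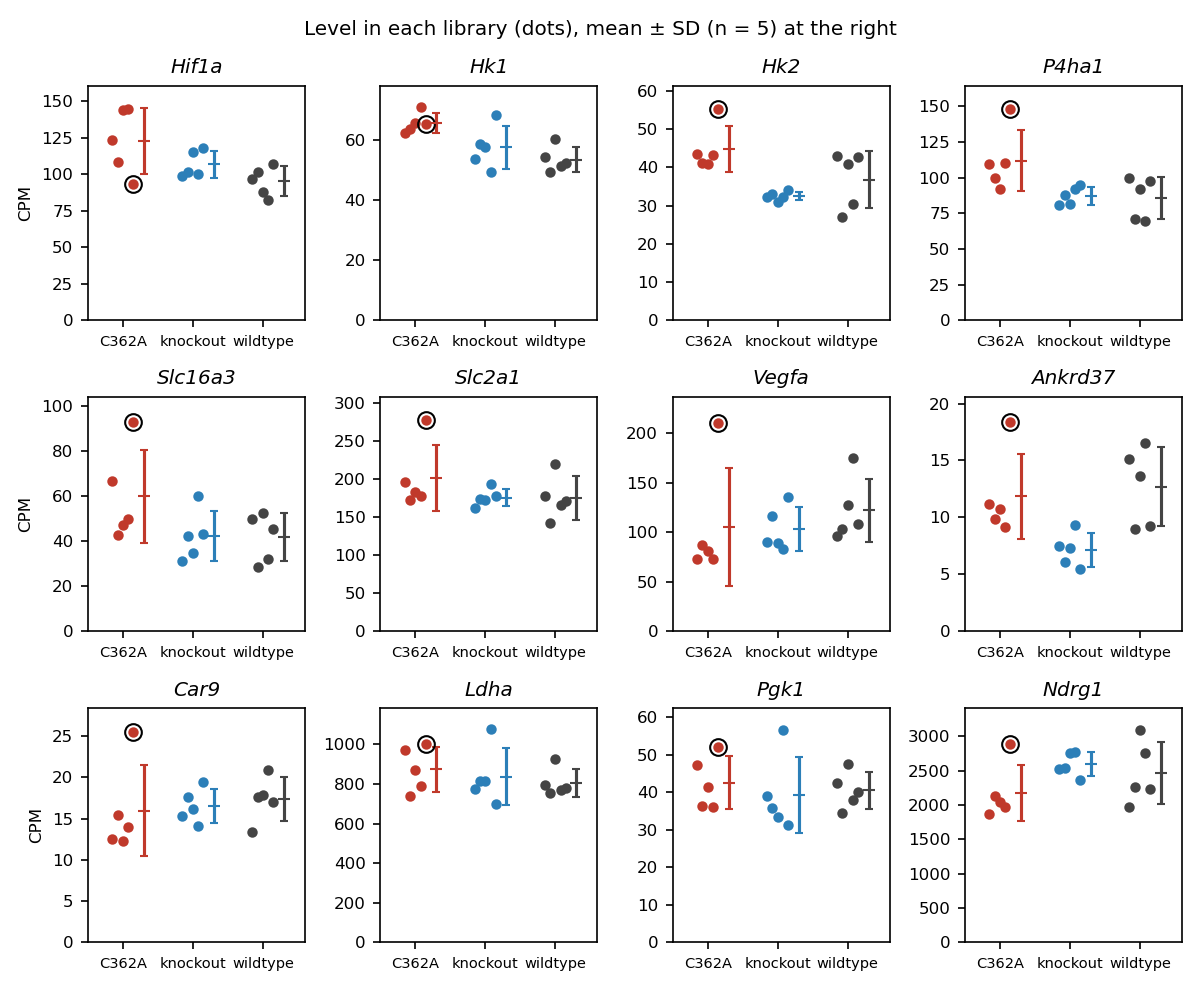
CPM in each library (dots) for 12 of the genes, with mean ± SD (n = 5) beside them, in C362A (red, left), knockout (blue, middle) and wildtype (dark grey, right). C362A replicate 5 is ringed: it is the highest C362A library in each panel except Hif1a, where it is the lowest, and Hk1, where it lies among the others.

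Of the 8 genes of upper glycolysis, 7 had a positive log2 fold change in C362A against wildtype and none was called. This held for 4 of 8 without C362A replicate 5, and the median of the 8 was 0.027 in place of 0.114. Gpi1, which interconverts glucose 6-phosphate and fructose 6-phosphate, had a log2 fold change of 0.22 (SE 0.09, unadjusted p = 0.0304 by edgeR). The values were 0.20 for Pfkl, 0.19 for Aldoa, 0.12 for Tpi1, 0.10 for Pfkfb3, 0.09 for Pfkp and 0.07 for Aldoc. Without that library 3 of these turned, to −0.16 for Pfkfb3, −0.04 for Pfkp and −0.11 for Aldoc, and Aldoa was at 0.11. Pfkfb4, which like Pfkfb3 makes the phosphofructokinase activator fructose 2,6-bisphosphate, ran the other way at −0.56 (SE 0.29), or −0.85 without C362A replicate 5. It was at 21.5, 29.6, 25.4, 26.3 and 54.0 CPM in C362A libraries and at 30.5, 37.9, 56.6, 78.0 and 29.1 CPM in wildtype libraries.

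Lower glycolysis was mixed. Pkm had a log2 fold change of 0.27 (SE 0.12, unadjusted p = 0.0303 by edgeR), Eno1 of 0.12 and Pgk1 of 0.07, while Pgam1 was at −0.27 and Gapdh at −0.49 (SE 0.22, unadjusted p = 0.0368 by edgeR). Pgk1, the first ATP-producing enzyme of the pathway, was at 47.3, 36.3, 41.3, 36.0 and 51.9 CPM in C362A libraries and at 42.4, 34.3, 47.6, 37.9 and 40.2 CPM in wildtype libraries. Ldha was at 971, 739, 871, 789 and 1004 CPM in C362A libraries and at 797, 754, 928, 770.2 and 779 CPM in wildtype libraries. Both genes overlapped between the groups, and Ldha had a log2 fold change of 0.12 (SE 0.11). Pdk1 was at 137, 127, 134, 130.5 and 175 CPM in C362A libraries and at 130.5, 122, 138, 104 and 136 CPM in wildtype libraries, with a log2 fold change of 0.16 (SE 0.11). Without C362A replicate 5 the log2 fold change was −0.009 for Pgk1, 0.06 for Eno1, 0.06 for Ldha and 0.07 for Pdk1. Slc16a3, the lactate exporter MCT4, had a larger but more variable difference, at 67.0, 42.9, 47.1, 50.1 and 93.3 CPM in C362A libraries against 49.8, 28.7, 52.7, 32.2 and 45.7 CPM in wildtype libraries (log2 fold change 0.52, SE 0.24, adjusted p = 0.313 by edgeR). It was 0.31 without C362A replicate 5 (adjusted p = 0.358 by edgeR).

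The secreted and pH-related targets and the remaining HIF targets differed in sign. Vegfa (Entrez 22339, chr17:46016993-46032377), the vascular growth factor, was at 73.3, 87.7, 80.9, 73.5 and 211 CPM in C362A libraries and at 95.9, 103.5, 127, 175 and 108 CPM in wildtype libraries. Replicates 1 to 4 of C362A lay below all wildtype libraries and replicate 5 above all of them. Car9, the gene of a carbonic anhydrase that helps cells export acid, was at 12.5, 15.4, 12.3, 14.0 and 25.5 CPM in C362A libraries and at 13.3, 17.6, 17.9, 20.9 and 17.03 CPM in wildtype libraries. Here too replicate 5 of C362A lay above all wildtype libraries, while 2 of the other 4 lay below all of them and 2 inside their range. Its log2 fold change was −0.12 (SE 0.18), and that of Vegfa −0.21 (SE 0.29). Without that library they were −0.35 and −0.63. Adm was at 2.74, 2.596, 3.22, 2.06 and 4.20 CPM in C362A libraries and at 2.49, 1.51, 2.47, 1.77 and 1.60 CPM in wildtype libraries (log2 fold change 0.59, SE 0.20, adjusted p = 0.285 by edgeR). P4ha1 (Entrez 18451, chr10:59323197-59373304), a collagen prolyl hydroxylase subunit, was at 109.5, 99.95, 92.3, 110.1 and 148 CPM in C362A libraries and at 100.1, 70.8, 91.9, 69.5 and 97.9 CPM in wildtype libraries (log2 fold change 0.38, SE 0.13, adjusted p = 0.285 by edgeR). The log2 fold changes of the other genes were 0.18 for P4ha2, 0.15 for the mitophagy receptor gene Bnip3, 0.08 for the mitochondrial protein gene Higd1a, −0.03 for the histone demethylase gene Kdm3a, −0.09 for the MYC antagonist gene Mxi1, −0.10 for Ankrd37 and −0.18 for Ndrg1. Each was lower without C362A replicate 5, at 0.11 for P4ha2, −0.10 for Bnip3, 0.03 for Higd1a, −0.17 for Kdm3a, −0.22 for Mxi1, −0.31 for Ankrd37 and −0.30 for Ndrg1.

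Leaving out C362A replicate 5 changed which genes passed. That library was singled out by its levels in these same 34 genes. The calls without it therefore only describe how the test depends on 1 library. Hif1a then rose in C362A (log2 fold change 0.45, SE 0.10, adjusted p = 0.0201 by edgeR) and so did Hk1 (0.30, SE 0.09, adjusted p = 0.0419 by edgeR). Gapdh (−0.78, SE 0.16, adjusted p = 0.0191 by edgeR) and Vegfa (−0.63, SE 0.18, adjusted p = 0.0401 by edgeR) fell. That is 2 genes higher and 2 lower out of 34, on a background of 4.29% of tested genes called higher and 5.47% lower without that library, so the share of these genes that was called, 5.88% in each direction, was near that of all genes. At an unadjusted p under 0.05, 4 of the 34 were higher and 7 lower without it, where 14.1% and 16.3% of tested genes were. The log2 fold change was positive for 18 of 34 genes without it and for 24 with it, and 32 of 34 had a lower value without it. Gapdh was at 1.37, 1.62, 1.26, 1.36 and 2.997 CPM in C362A libraries and at 2.08, 2.36, 2.23, 3.01 and 2.45 CPM in wildtype libraries, a level that rests on 42 to 100 uniquely placed reads in a library. The sample ID numbers of the 15 libraries form 1 unbroken series, in which the order of the genotypes repeats, first with 2 and then with 3 libraries of each. The labels give no meaning to this, and the libraries were also fitted as 2 sets divided where the order repeats. The same 4 genes passed in the set with 3 libraries per genotype, which does not hold C362A replicate 5, together with Pkm and Adm higher and Car9 lower, where 5.07% of tested genes were called higher and 8.44% lower. That set is a part of the same libraries, so its calls are not independent of those above. In the other set, with 2 libraries per genotype, 0 of 34 passed, where 0.0% were called in either direction.

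**Figure D4:**
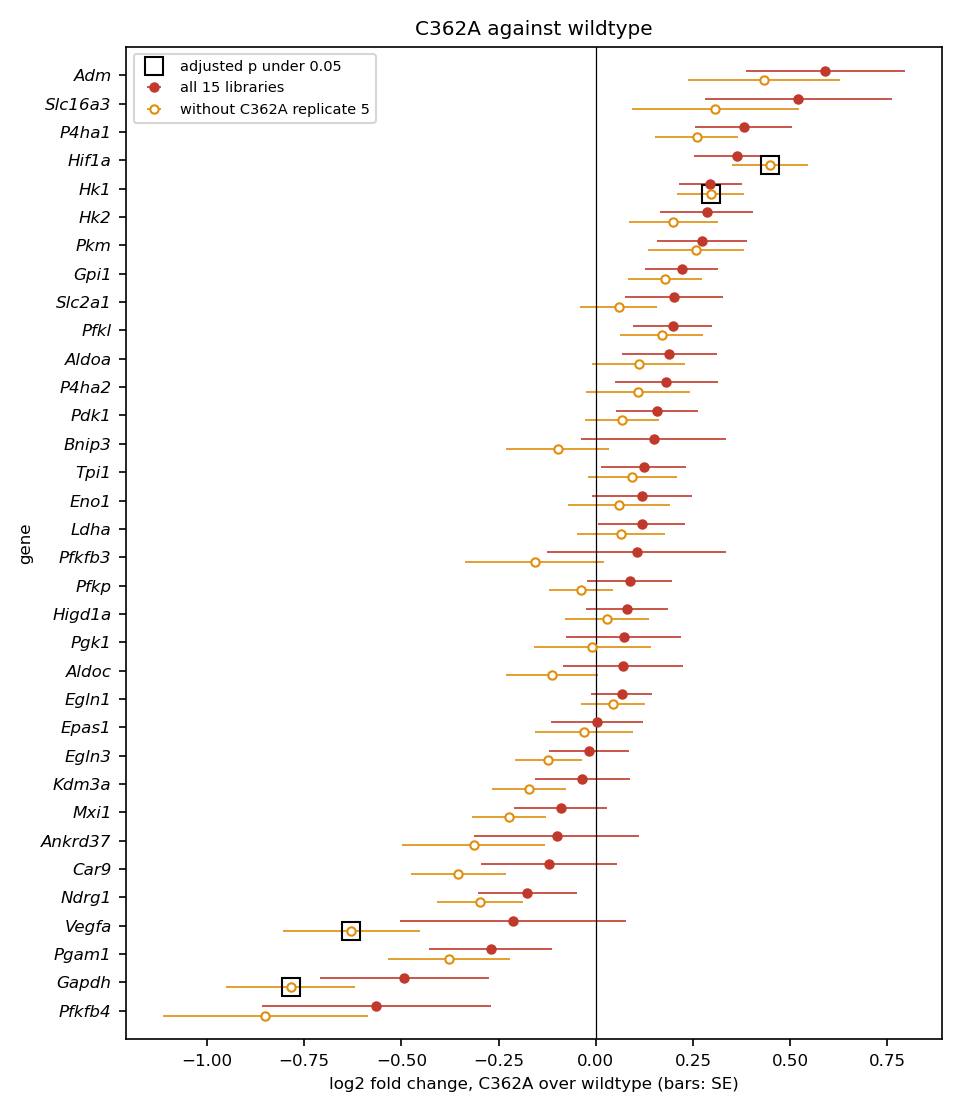
Log2 fold changes of the 34 genes for C362A over wildtype with SE bars, from all 15 libraries (filled red) and without C362A replicate 5 (open orange), and black squares where the adjusted p is under 0.05. All 4 squares (Hif1a, Hk1, Vegfa and Gapdh) are on points without that library.

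Within the C362A group, replicate 5 differed from the other 4 libraries by a median log2 difference of 0.46 over the 34 genes, against 0.008 over all genes tested. Its Vegfa level was 2.68 times the mean of the other 4, Pfkfb4 2.11 times, Gapdh 2.07 times, Pfkfb3 2.0 times, Bnip3 1.93 times, Car9 1.89 times, Slc16a3 1.83 times and Ankrd37 1.80 times. The genes within the range of the other 4 were Egln1, Hk1, Pfkl, Tpi1 and Pkm, and Hif1a was below them at 0.72 times their mean. Several cell type lists moved with it. The summed enterocyte list (20 genes, none at 0) was at 19200 CPM in replicate 5 and at 8917 to 13280 CPM in the other C362A libraries, where knockout libraries had 20000 to 23890 CPM and wildtype libraries 12200 to 36050 CPM. The summed proliferation list (10 genes) was at 1162 CPM in replicate 5 and at 1466 to 1738 CPM in the other C362A libraries, and the summed fibroblast list (8 genes) at 5298 against 6863 to 7828 CPM. The summed erythroid list (10 genes) was lowest there of all 15 libraries, at 1357 CPM. The part of these cell types in the levels of the 34 genes was not tested. With the mean of the enterocyte list as a covariate, 0 of 34 were called in C362A against wildtype, where 0.0599% of tested genes were called higher and 0.0% lower. In that fit 32 of the 34 had a positive log2 fold change, and the median was 0.15, where that of all genes was 0.0. The fit holds C362A replicate 5 and was not run without it. The enterocyte list itself differed between these genotypes, with a median log2 fold change of −0.57, so the covariate cannot be separated from genotype.

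In knockout against wildtype the log2 fold changes of the 34 genes lay between −0.83 and 0.19, and the one largest in size was that of Ankrd37 (Entrez 654824, chr8:45996908-46000414), a small ankyrin-repeat gene known as a HIF target. It was at 7.47, 6.12, 7.29, 9.32 and 5.47 CPM in knockout libraries and at 15.1, 8.996, 13.6, 16.6 and 9.25 CPM in wildtype libraries. Of the knockout libraries, 4 lay below all wildtype libraries and replicate 4 just above the 2 lowest, and the log2 fold change was −0.83 (SE 0.21, unadjusted p = 0.00125, adjusted p = 1.0 by edgeR). The antisense genes Lrp2bp and Ufsp2 overlap 26.4% of its exon bases, and reads of the 2 strands cannot be told apart in these libraries. Gapdh was at 2.08, 1.85, 1.59, 1.56 and 1.93 CPM in knockout libraries (log2 fold change −0.43, SE 0.22, adjusted p = 1.0 by edgeR). On the CPM scale it was the only 1 of the 34 genes with no overlap, all 5 knockout libraries being below wildtype. Of tested genes, 0.37% showed this as higher and 0.332% as lower. The gap was only that between 2.078 CPM in knockout replicate 1 and 2.082 CPM in wildtype replicate 1. The raw counts overlapped, at 50 to 74 in knockout and 72 to 92 in wildtype libraries.

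The other members named for the knockout were not under an unadjusted p of 0.05 by edgeR, and their differences were within the spread of wildtype. Hk2 was at 32.3, 32.99, 31.0, 32.3 and 34.1 CPM in knockout libraries, between the lower and the upper wildtype libraries (log2 fold change −0.18, SE 0.12). Higd1a was at 11.2, 11.2, 9.84, 12.5 and 10.2 CPM in knockout libraries and at 11.8, 11.99, 10.7, 11.8 and 15.4 CPM in wildtype libraries (−0.17, SE 0.11). Pfkfb3 was at 36.3, 39.7, 41.7, 39.6 and 54.1 CPM in knockout libraries and at 49.9, 34.2, 58.3, 78.2 and 48.6 CPM in wildtype libraries (−0.35, SE 0.23). Each of these 3 genes overlapped between the genotypes. Among the genes followed in every library, Hif1a was at 99.0, 102, 115, 100.4 and 118 CPM in knockout libraries (0.16, SE 0.11) and Epas1 at 36.4, 45.2, 35.1, 37.6 and 52.8 CPM (0.05, SE 0.12). Slc2a1 was at 162, 174, 172, 194 and 178 CPM (0.004, SE 0.13), Vegfa at 90.5, 117, 89.0, 83.5 and 136 CPM (−0.24, SE 0.29), and Car9 at 15.3, 17.6, 16.2, 14.2 and 19.4 CPM (−0.07, SE 0.18) in knockout libraries. The enzymes Ldha (777, 817, 815, 1077 and 698 CPM), Pgk1 (38.9, 35.8, 33.5, 56.4 and 31.2 CPM) and Pdk1 (116, 122, 122, 156 and 117 CPM) shared their highest knockout library, replicate 4, and their log2 fold changes were 0.05, −0.05 and 0.007.

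In C362A against knockout the smallest p belonged to Hk2, whose 5 C362A libraries, at 41.0 CPM or more, all lay above the 5 knockout libraries, at 34.1 CPM or less. It was the only 1 of the 34 genes without overlap, a pattern seen in 1.11% of tested genes as higher and 1.74% as lower. Its log2 fold change was 0.46 (SE 0.12, unadjusted p = 0.00124, adjusted p = 0.317 by edgeR), and 0.38 without C362A replicate 5 (adjusted p = 0.0609 by edgeR). Ankrd37 was at 11.2, 9.84, 10.7, 9.12 and 18.4 CPM in C362A libraries, against 5.47 to 9.32 CPM in knockout libraries (log2 fold change 0.73, SE 0.21, adjusted p = 0.317 by edgeR). Replicates 1 to 4 of C362A lay near the lower wildtype libraries, and replicate 5 above all wildtype libraries. P4ha1 was at 80.7, 87.7, 81.9, 92.2 and 94.9 CPM in knockout libraries, with a log2 fold change of 0.36 (SE 0.13, adjusted p = 0.317 by edgeR), or 0.24 without C362A replicate 5. Higd1a was at 13.0, 12.5, 11.3, 13.6 and 14.9 CPM in C362A libraries (0.25, SE 0.11), and Hk1 at 53.7, 58.9, 57.9, 49.5 and 68.5 CPM in knockout libraries (0.19, SE 0.08), both with an adjusted p of 0.33 by edgeR. Without C362A replicate 5, 0 of 34 were called, where 1.78% of tested genes were called higher and 2.57% lower. In the set with 3 libraries per genotype 1 of 34, Ndrg1, was called lower, where 0.665% of tested genes were called higher and 1.36% lower, and in the other set 0 of 34 were called, where 0.00537% were called higher and 0.0% lower.

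Beyond the 34 genes, lists of other HIF pathway genes (11), other HIF targets (33), other glycolysis genes (30) and gluconeogenesis genes (7) were read from the same fit, and Ddit4 was the only called gene among them with all 15 libraries. Ddit4 (Entrez 74747, chr10:59949675-59951770), also called Redd1, encodes an inhibitor of mTORC1 signalling that hypoxia and other stresses induce. It was at 56.5, 50.3, 53.7, 48.9 and 61.1 CPM in C362A libraries, at 35.8, 35.7, 34.2, 37.2 and 37.3 CPM in knockout libraries, and at 51.0, 44.8, 52.6, 55.1 and 45.8 CPM in wildtype libraries. All 5 knockout libraries lay below the 10 others. It fell in knockout against wildtype (log2 fold change −0.47, SE 0.07, adjusted p = 0.0276 by edgeR) and rose in C362A against knockout (0.59, SE 0.07, adjusted p = 0.00374 by edgeR), and C362A against wildtype did not pass (0.12, SE 0.07, adjusted p = 0.412 by edgeR). The C362A mean was 54.1 CPM, or 52.35 CPM without C362A replicate 5, against 49.86 CPM in wildtype libraries. Leaving out single libraries put the adjusted p of the first between 0.0142 and 0.134 and that of the second between 0.00232 and 0.0266, with the call in knockout against wildtype lost without C362A replicate 2 or 3, knockout replicate 1, 2, 3 or 5, or wildtype replicate 1, 3 or 4.

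None of the 11 other HIF pathway genes and none of the 33 other HIF targets passed in C362A against wildtype, and their medians were −0.007 and 0.032. Their medians without C362A replicate 5 were 0.021 and −0.017. In that fit Hif1an (log2 fold change −0.38, adjusted p = 0.039 by edgeR) and Plod2 (0.33, adjusted p = 0.0476 by edgeR) passed. They were 1 of 11 and 1 of 33 genes, where 5.47% of tested genes were called lower and 4.29% higher. As above, such calls only describe how the test depends on 1 library. The smallest p-values among them were for Hif1an, which encodes the HIF-inhibiting asparaginyl hydroxylase FIH (log2 fold change −0.32, SE 0.11), for the Vhl complex scaffold gene Cul2 (0.18, SE 0.07), for the collagen lysyl hydroxylase gene Plod2 (0.36, SE 0.09) and for the collagen cross-linking enzyme gene Lox (0.33, SE 0.13), each with an adjusted p of 0.285 by edgeR. Hif1an was at 109, 135, 127, 127 and 149 CPM in C362A libraries, at 156 to 169 CPM in knockout libraries, and at 130.1, 158, 170, 208 and 143 CPM in wildtype libraries. In C362A against knockout its log2 fold change was −0.32 (SE 0.11), followed in that list by Hif3a at −0.23 (SE 0.14). In knockout against wildtype the smallest p-values of the pathway list belonged to Cul2 (0.10) and the elongin subunit gene Elob (−0.13).

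The gluconeogenesis genes had the median farthest from 0 of these 4 lists in both C362A comparisons. It was −0.48 in C362A against wildtype and −0.476 in C362A against knockout, against 0.014 in knockout against wildtype. In each comparison 0 of 7 were called. At an unadjusted p under 0.05 by edgeR, 5 of 7 were lower in C362A against wildtype (7.8% of tested genes). The count was 6 in C362A against knockout (7.41%) and 0 in knockout against wildtype (1.23%). Without C362A replicate 5, Slc37a4, the glucose 6-phosphate transporter gene, was called lower in C362A against wildtype (−0.63, adjusted p = 0.0389 by edgeR). In that fit 5.47% of tested genes were called lower. G6pc, which releases free glucose, was at 0.654, 1.33, 1.62, 1.48 and 2.25 CPM in C362A libraries, at 4.999, 5.41, 5.28, 1.47 and 5.47 CPM in knockout libraries, and at 1.30, 5.57, 3.48, 10.5 and 1.81 CPM in wildtype libraries. Fbp1, the fructose bisphosphatase gene, was at 2.27, 3.68, 2.80, 2.81 and 8.81 CPM in C362A libraries, at 7.67 to 22.1 CPM in knockout libraries, and at 2.78, 10.04, 13.8, 43.8 and 3.92 CPM in wildtype libraries. In both genes the libraries with a low enterocyte sum, C362A 1 to 4 and wildtype 1 and 5, were low. G6pc was also low in knockout replicate 4 and C362A replicate 5, whose enterocyte sums were 20000 and 19200 CPM. Wildtype replicate 2, at a sum of 19830 CPM, had G6pc at 5.57 CPM. The enterocyte list had a median of −0.57 in C362A against wildtype. The part of enterocyte content in these values was not tested. The log2 fold changes with the smallest p-values in this list were those of G6pc (−1.62, SE 0.53) and Fbp1 (−1.86, SE 0.70) in C362A against wildtype, both at an edgeR adjusted p of 0.285. In C362A against knockout they were those of G6pc (−1.63, SE 0.53) and Fbp2 (−0.40, SE 0.14), both at an edgeR adjusted p of 0.317. In knockout against wildtype they were those of the pyruvate carboxylase gene Pcx (0.15, SE 0.15) and Pck2 (0.10, SE 0.12), the mitochondrial phosphoenolpyruvate carboxykinase gene. In the other glycolysis list 0 of 30 were called in each comparison with all 15 libraries. Without C362A replicate 5, 1 of the 30 was called lower in C362A against knockout, where 2.57% of tested genes were. Genes with small p-values in it were the glycerol phosphate dehydrogenase gene Gpd1 (−0.86, SE 0.29) and the pyruvate dehydrogenase phosphatase gene Pdp1 (0.22, SE 0.09) in C362A against wildtype, and Gpd1 (−0.82, SE 0.29) in C362A against knockout. In knockout against wildtype 0 of the 30 were higher and 1 was lower at an unadjusted p under 0.05 by edgeR (1.2% and 1.23% of tested genes). Ldhb (0.21, SE 0.13) was not under that threshold there.

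Most of the glycolytic enzyme genes varied together between libraries of the same genotype. With the genotype means removed, log2 CPM was correlated with that of Pgk1 over the 15 libraries for the other 33 genes. Pgk1 is among the genes with an uncertain level, since 68.0% of its 50-base windows occur also in other genes. The median r was 0.558, and 28 of 33 were positive, while the median over all genes tested was −0.021. An r above 0.8 was found for 6 of 33 genes, or 18.2%, and for 0.876% of all genes tested. Ldha had the highest correlation (Pearson r = 0.937, p = 9e-05; Spearman rho = 0.854, p = 0.00075), in a two-sided permutation test with 100000 resamples within genotype, not adjusted for the 33 relations computed. Tpi1 followed with r = 0.899 (p = 0.00021) and rho = 0.85 (p = 0.0008), and Aldoa with r = 0.891 (p = 0.00026) and rho = 0.675 (p = 0.013), in the same permutation test. Pfkl, Eno1 and the oxygen sensor gene Egln1 had r of 0.854, 0.827 and 0.815. Without C362A replicate 5 and knockout replicate 4, the 2 libraries farthest from the median of Pgk1, r was 0.849 for Ldha, 0.787 for Tpi1 and 0.746 for Aldoa. The number of genes with an r above 0.8 was then 1 of 33, or 3.03%, where 1.01% of all genes tested had one. The median r of the 33 was then 0.333, with 21 of 33 positive.

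Several regulators and HIF targets had low or negative correlations. Hif1a had the lowest correlation with Pgk1, at r = −0.468 (p = 0.081) and rho = −0.45 (p = 0.12), and Hk1 followed at r = −0.412 (p = 0.24) and rho = −0.279 (p = 0.37), in the same permutation test. Vegfa at 0.092, Car9 at −0.04, Kdm3a at −0.107 and Pfkfb4 at 0.033 had r near 0, although all 4 were highest among C362A libraries in replicate 5. The lower end of this order changed without C362A replicate 5 and knockout replicate 4. Car9 then had the lowest r at −0.516, followed by Kdm3a at −0.348 and Hif1a at −0.281. In the same 13 libraries r was −0.223 for Vegfa, −0.193 for Pfkfb4 and −0.05 for Hk1. The lactate exporter gene Slc16a3 (0.776) and Bnip3 (0.761) varied with the enzymes, and Slc2a1 was at 0.697. The 15 points share the depth and scaling of their libraries with all other genes.

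**Figure D5:**
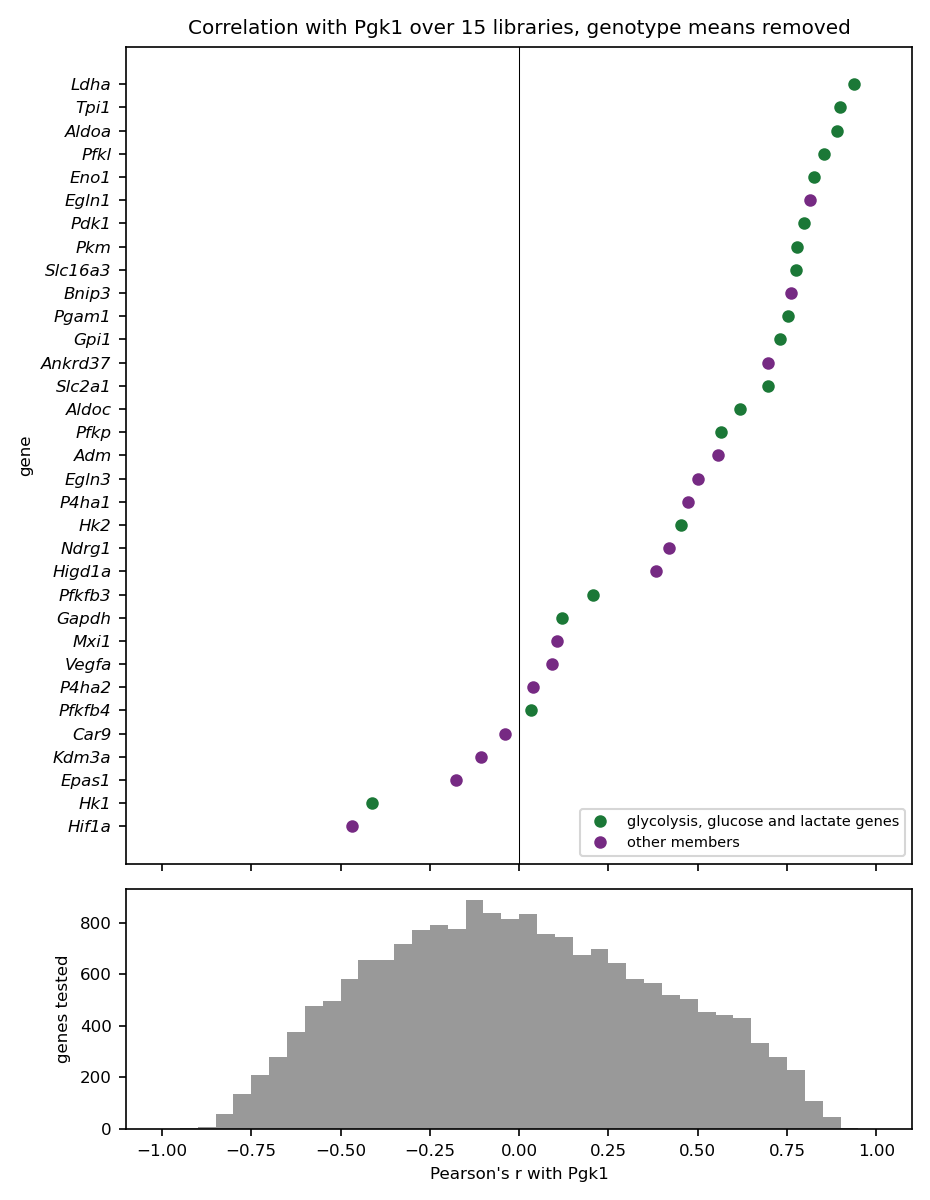
Upper panel: Pearson's r with Pgk1 over the 15 libraries, genotype means removed, for the other 33 genes, with glycolysis, glucose and lactate genes in green and the rest in purple. Lower panel: the same r for all genes tested, whose median is −0.021. Ldha, Tpi1 and Aldoa are at the top, and Hif1a and Hk1 at the bottom.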

How the data were processed

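RNA of E16.5 mouse intestine was sequenced in 15 libraries, 5 per genotype. Per the labels' protocols, 0.5 ug of RNA entered a TruSeq v2 kit, which does not mark the strand, and 50 bp single-end reads were made. Per the submitters' processing notes, the tools and builds named are GSNAP and GRCm38. For versions and the gene annotation, the sources used here give nothing. The deposited counts are uniquely aligned reads per gene, per the file headers, which lowers genes with near-identical copies. A size factor for each library enters the deposited RPKM, per the file headers, and these values were used for levels between genes.

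From the counts, edgeR 4.0.16 (R 4.3.3) was run with its quasi-likelihood test, TMM factors, filterByExpr (minimum count 10, minimum total 15) and robust estimates, with all 15 libraries in 1 fit and p-values adjusted by Benjamini-Hochberg over 18370 genes. Unnamed gene IDs held 1.69% to 1.96% of counts and stayed in the tests. Each of the 34 genes had 42 to 104027 counts in a library, and 30 of them averaged over 10 CPM. The scripts were tested on simulated data. Alternatives were other scalings, filters and models, DESeq2 1.42.0, limma 3.58.1 (voom, and log2(RPKM + 1) or log2(RPKM + 0.1)), covariates, and each library left out. Fits within 2 sets of libraries, divided where the genotype order repeats in the unbroken series of sample ID numbers, and Aldoa in place of Pgk1, were added after seeing the data. Shared 50-base windows and exon overlaps come from GENCODE M21, gene names, coordinates and promoters from RefSeq on GRCm38.p6.

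The members, lists and tests were chosen with earlier results of these data known. Values in every library were given for Hif1a, Epas1, Slc2a1, Vegfa, Car9, Pdk1, Ldha, Pgk1 and Hk2 and for the 5 members with the smallest p in each comparison. The 4 other pathway lists had their called genes named or, failing those, the 2 with the smallest p, of which some are not reported here. Which of these and other genes are shown by library was chosen after their values were seen. For the correlations an adjustment over the 33 relations had been planned, and since the members were chosen with results known, unadjusted values are given. Of 11 erythroid symbols, 10 were found. Chi-square comparisons found that no libraries of a genotype agreed within sampling noise.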

Additional observations from a re-analysis of the deposited data

Results flagged for a closer look

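Dixon's rule flags a library whose gap to the nearest other, as a share of the range of the 5 libraries, is above a 95% critical value (0.71). Of 102 groups of 5 libraries (34 genes in 3 genotypes), 22 had 1 such library, where chance flags about 1 in 20 groups. C362A replicate 5 accounted for 16 of them, each time as the highest of its genotype. Among glucose and glycolysis genes these were Slc2a1 at 279 CPM, Hk2 at 55.4, Pfkp at 255.7, Pfkfb3 at 96.4, Pfkfb4 at 54.0, Gapdh at 2.997 and Pgam1 at 2.88 CPM, with the pyruvate dehydrogenase kinase gene Pdk1 at 175 CPM. Among oxygen response genes they were Egln3 at 286 CPM, Vegfa at 211, Car9 at 25.5, Bnip3 at 16.4, Kdm3a at 159, Mxi1 at 78.7, Ndrg1 at 2894 and Ankrd37 at 18.4 CPM.

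Knockout replicate 4 stood above its group in 4 genes of glycolysis, at 607 CPM for Pfkl, 933 for Aldoa, 407 for Pkm and 156 CPM for Pdk1. Wildtype replicate 3 stood above its group in Ldha, at 928 CPM, and wildtype replicate 5 in Higd1a, at 15.4 CPM. The 34 genes covary between libraries, so these flags are not independent of each other, and their causes were not tested.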

How the results depend on the processing

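In C362A against wildtype, where 15 genes were called in all, DESeq2 called 55, a filter of 5 CPM in 5 libraries called 1, a threshold of 0.01 left 7, the set of libraries with 2 per genotype called 0 and the set with 3 called 2478. In knockout against wildtype, with 7 called, DESeq2 called 13, the CPM filter 2, and 1 gene was called in a fit of the 2 genotypes only, with the erythroid covariate, at the threshold of 0.01 and in each set. In C362A against knockout, with 2 called, DESeq2 called 31, limma on log2(RPKM + 1) 5, limma on log2(RPKM + 0.1) 4, the fit of 2 genotypes 4, and the sets 1 and 372. The cause of these differences was not tested.

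Of the 34 genes, 0 were called in any comparison under the other scalings, filters, models and covariates, with 31 of them left under the CPM filter. Exceptions were C362A against wildtype without C362A replicate 5 (4 called) and in the set with 3 libraries (7 called), and C362A against knockout in that set, where Ndrg1 was lower (1 called). Without single libraries, all genes called ranged from 7 to 1807 in C362A against wildtype, from 1 to 8 in knockout against wildtype and from 2 to 805 in C362A against knockout, with both highest C362A counts reached without C362A replicate 5. Members called ranged from 0 to 4 in C362A against wildtype. The member median for knockout against wildtype was −0.159 in the set with 2 libraries per genotype. There Gapdh reversed in C362A against wildtype, at a log2 fold change of 0.090. The number of members correlated with Pgk1 at an unadjusted permutation p under 0.05 was 20, and lay between 15 and 20 without single libraries. Across alternatives, the sign of the log2 fold change turned at least once for 18 members in C362A against wildtype, 24 in knockout against wildtype and 18 in C362A against knockout.

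The call of Ddit4 in knockout against wildtype was lost in 14 alternatives with the same direction, and that in C362A against knockout in the set with 2 libraries per genotype. No paired analysis was possible because the labels carry no replicate numbers. Gapdh, Adm and Pgam1, at 1 to 5 CPM, have the widest counting error.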
